A study of Mus musculus with 9 samples.

Results

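Imprinted genes were followed through sorted cells of mouse neural tube organoids. The set is a list of 40 mouse genes with known parent-of-origin expression, chosen by name, with H19 and Igf2 at its head, and matched to the deposited table by Ensembl gene identifier. All 40 were found among the 54532 genes of the table, and 38 of them passed the filter on low counts. The list was drawn up with results of these data in view and is named after H19 and Igf2, so those genes are described without a test, which leaves 36 tested genes. By what is known of the allele they express, 11 of the 40 were classed as maternally expressed and 23 as paternally expressed. The other 6 were classed as differing between tissues or promoters (Ube3a, Tspan32, Cd81, Grb10, Ddc and Gnas). The classes were not measured in these cells, and genes of the first classes may also differ between tissues.

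Imprinted genes are transcribed mainly from the copy inherited from one parent. The mark that tells the copies apart is DNA methylation laid down in the egg or sperm at imprinting control regions, and zinc finger proteins such as ZFP57 hold it in place in the early embryo and in embryonic stem cells. Many of the genes sit in clusters in which a noncoding RNA from one parental copy accompanies silence of protein-coding neighbours on that copy, and many act on fetal growth, placenta and brain. These libraries count transcripts without separating the parental copies, so no result below is about an allele.

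The organoids were grown clonally in Matrigel and N2B27 medium from the mouse embryonic stem cell line R1 carrying FoxA2-Venus, so every group carries the same reporter in a single cell line. RA GFP- and RA GFP+ are the cells with low and high signal in the GFP channel from organoids given all-trans retinoic acid (RA) at day 2, and SAG GFP+ are high-signal cells from organoids labelled N2B27+SAG, SAG being a small-molecule agonist of the hedgehog signal transducer Smoothened. All cells were sorted 66 h after day 2, and each group has 3 libraries that the labels call biological replicates, named here by group and number (RA GFP- 1). The RA dose is written as 250 nM in one place and 250 µM in another, no dose or time is given for SAG, and low-signal cells from SAG organoids were not analysed here. Foxa2, the gene behind the reporter, stood at 1.33 to 2.51 CPM (counts per 1000000 counts, scaled between libraries) in RA GFP-, 133 to 184 in RA GFP+ and 205 to 326 in SAG GFP+.

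The libraries hold 25281871 to 29763765 counts each. Summed levels of 8 floor plate genes (the ventral midline of the neural tube) were 199 to 280 CPM in RA GFP-, 833 to 1268 in RA GFP+ and 964 to 1346 in SAG GFP+, and those of 8 neural progenitor genes 1390 to 1520, 515 to 777 and 1303 to 1480. Markers of other cells moved with the groups as well. The 8 pluripotency genes summed to 725 to 1158 CPM in RA GFP-, 45.9 to 61.5 in RA GFP+ and 60.9 to 226 in SAG GFP+. The 8 neuron genes summed to 311 to 454, 83.6 to 102 and 383 to 646. The 12 mesenchyme genes summed to 18.4 to 24.3, 75.2 to 84.8 and 37.3 to 56.2, with Osr1 at 0 in every SAG GFP+ library, and the 12 endoderm genes to 82.3 to 107, 111 to 176 and 83.5 to 102, with Afp and Ttr at 0 in RA GFP- and Afp and Apoa1 at 0 in SAG GFP+. The called genes with the smallest adjusted p were Foxa2, Slit3 and Spon1 for floor plate, Sox1, Fabp7 and Pax6 for neural progenitors, Zfp42, Esrrb and Dppa5a for pluripotent cells, Stmn2, Elavl4 and Elavl3 for neurons, Foxf1, Osr1 and Foxf2 for mesenchyme and Sox17, Cubn and Gata6 for endoderm. Most of the endoderm sum in RA GFP- and SAG GFP+ came from Epcam and Cxcr4. Epcam stood at 36.9 to 66.4 CPM in RA GFP-, 21.9 to 65.6 in RA GFP+ and 19 to 55.2 in SAG GFP+. Cxcr4 stood at 31.2 to 37.3, 14.5 to 31.9 and 29.3 to 73.5 CPM in the same order. Sox17 stood at 0.991 to 1.69 CPM in RA GFP-, 34.6 to 55.3 in RA GFP+ and 0.0389 to 0.896 in SAG GFP+. Genes of a list did not all move together. Among floor plate genes, Foxa1 and Shh were called lower in SAG GFP+ than in RA GFP+ (log2 fold changes -2.35 and -1.46). Foxa2 and Slit3 were called higher there (0.65 and 1.09), and the Foxa2 call was lost in 6 of 15 alternative fits. Foxa1 stood at 32.8 to 71.5 CPM in RA GFP+ and 7.62 to 12.7 in SAG GFP+, and Shh at 11.8 to 21.2 and 3.01 to 8.28. In SAG GFP+ against RA GFP+, Pou5f1, Nanog and Tdgf1 were called higher, and Zfp42, Esrrb, Dppa5a and Klf4 lower. Pou5f1 stood at 3.7 to 6.7 CPM in RA GFP+ and at 171, 37.4 and 39.3 in SAG GFP+ 1 to 3. In those SAG GFP+ libraries Tdgf1 was 20.5, 3.75 and 3.19 CPM, and the pluripotency sum 226, 60.9 and 72.1. The Tdgf1 call was lost without SAG GFP+ 1, and also without RA GFP+ 1 or 2. With the replicate number as a block, 5 endoderm genes were higher in RA GFP+ than in RA GFP-. Amn, Cxcr4 and Hnf4a were lower in that fit. The part of these other cells in the results that follow was not tested. In such sorted bulk samples, fewer cells of a type and less RNA per cell cannot be told apart. Reads of overlapping genes are a further limit, since the strand setting of the counting is not given in the sources used here. Exons of Mest overlap Copg2 on the other strand over 23.1% of their bases, those of Cdkn1c Gm44732 over 30.7%, those of Gnas other genes over 22%, those of Usp29 Zim3 over 14.3%, those of Zrsr1 Commd1 over 9.17% and those of Ube3a Snhg14 over 8.74%.

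Some of the transcripts are also hosts of small RNAs, which poly(A) libraries do not measure. H19 holds the hairpin of miR-675, Igf2 that of miR-483 and Mest that of miR-335. In the RefSeq set for GRCm38.p6, 14 further hairpins lie inside Mirg, 3 inside Rian, 1 inside Meg3 and 1 inside Usp29, and 6 lie opposite Rtl1 and 1 on its strand. The mature forms are shown for H19 and Igf2, whose levels set SAG GFP+ apart, and for Mest, the member with the highest level per kilobase in RA GFP- and SAG GFP+, as RNA 5′ to 3′ with the seed, bases 2 to 8, in capitals. No seed is shared among them.
mmu-miR-675-5p: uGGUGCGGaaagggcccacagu
mmu-miR-675-3p: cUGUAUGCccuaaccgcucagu
mmu-miR-483-5p: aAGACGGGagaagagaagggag
mmu-miR-483-3p: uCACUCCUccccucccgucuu
mmu-miR-335-5p: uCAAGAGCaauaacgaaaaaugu
mmu-miR-335-3p: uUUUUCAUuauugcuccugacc

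Promoter windows, 250 bases before to 50 after a RefSeq start, were at hand for 33 of the 40 genes, as 48 windows. The hexamer TGCCGC, the core of the site that ZFP57 reads, was searched on both strands. It occurred in 10 of the 48 windows (20.8%) and in 11.6% of all 32817 windows. Those 10 windows lay at 9 genes (Grb10, Igf2, Meg3, Mest, Nap1l5, Nnat, Plagl1, Snrpn and Zim1). The Mest windows among them begin at 30737800 and 30737803, so nearly the same bases were counted again. The hexamer holds a CpG, and the median number of CpG was 12.5 in the 48 windows and 7.0 in all windows. The part of CpG content in the shares was not tested. The GLI motif GACCACCCA, read by the transcription factors of hedgehog signalling, occurred in 0 of the 48 windows and in 0.253% of all windows. With 0 matches of the second motif, the 2 did not overlap in these windows. Shown 5′ to 3′ on the gene's strand (RefSeq, GRCm38.p6) are stretches that begin 200 bases ahead of the start of Meg3 and Dlk1, neighbours whose levels parted, of Phlda2, which had the lowest log2 fold change of the tested genes, and of Plagl1. Capitals mark the hexamer or its reverse complement.
Meg3 (chr12:109540796-109540995, + strand): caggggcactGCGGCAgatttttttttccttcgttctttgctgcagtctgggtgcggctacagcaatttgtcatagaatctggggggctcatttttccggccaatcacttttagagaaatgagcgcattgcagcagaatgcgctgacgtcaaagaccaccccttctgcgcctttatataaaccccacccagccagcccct
Dlk1 (chr12:109452623-109452822, + strand): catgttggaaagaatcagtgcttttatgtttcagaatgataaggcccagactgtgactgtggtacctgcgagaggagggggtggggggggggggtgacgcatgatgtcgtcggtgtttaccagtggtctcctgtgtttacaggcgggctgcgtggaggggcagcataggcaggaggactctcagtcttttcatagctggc
Phlda2 (chr7:143502545-143502724, - strand): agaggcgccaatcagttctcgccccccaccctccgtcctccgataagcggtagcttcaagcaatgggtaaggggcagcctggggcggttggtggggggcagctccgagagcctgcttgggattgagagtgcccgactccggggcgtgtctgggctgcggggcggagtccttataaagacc
Plagl1 (chr10:13090632-13090781, + strand): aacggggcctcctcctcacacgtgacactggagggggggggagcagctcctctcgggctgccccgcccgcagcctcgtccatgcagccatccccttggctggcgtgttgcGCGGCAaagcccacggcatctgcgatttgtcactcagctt

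Across the 36 tested genes, edgeR's quasi-likelihood test with Benjamini-Hochberg adjustment over all 16772 tested genes called a gene at an adjusted p under 0.05. In RA GFP+ against RA GFP-, 15 genes were higher and 3 lower, which is 50% of the 36, where 16.9% of all tested genes were called (8.49% higher and 8.43% lower). With the replicate number as a block in a fit of the RA groups, 21 were higher and 4 lower (69.4%), where 32.2% of all genes in that fit were called. The summed mesenchyme level was also highest in RA GFP+, as given above; it is carried by some of its genes, since Col1a1, Twist1 and Prrx1 had their highest mean in SAG GFP+ and Col3a1 in RA GFP-. The median log2 fold change of the 36 was 0.48, against -0.018 for all tested genes. In SAG GFP+ against RA GFP+, 9 were higher and 8 lower (47.2%, with 24.5% of all genes called, 9.78% higher and 14.8% lower), and the median was 0.05 against -0.017. Between SAG GFP+ and RA GFP-, 14 were higher in SAG GFP+ and 6 lower (55.6%, with 28.5% of all genes called, 12.0% higher and 16.5% lower), and the median was 0.62 against -0.009. The comparisons share groups and are not independent. By their labels, SAG GFP+ and RA GFP- differ in both treatment and sorted signal, which cannot be told apart here. SAG GFP+ and RA GFP+ differ in both RA and SAG, and no group without either was included. Altogether 27 genes were called at least once and 9 were not called in any comparison. The 36 genes were listed with earlier results of these data known, so their higher share is no test of imprinted genes as a class. Of 30 tested imprinted genes outside the set, given at the end, the shares called were 20%, 30% and 33.3%. That list and the others below were also chosen with earlier results known. The plot of fold changes by locus shows that neighbours often took different values.

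**Figure D1:**
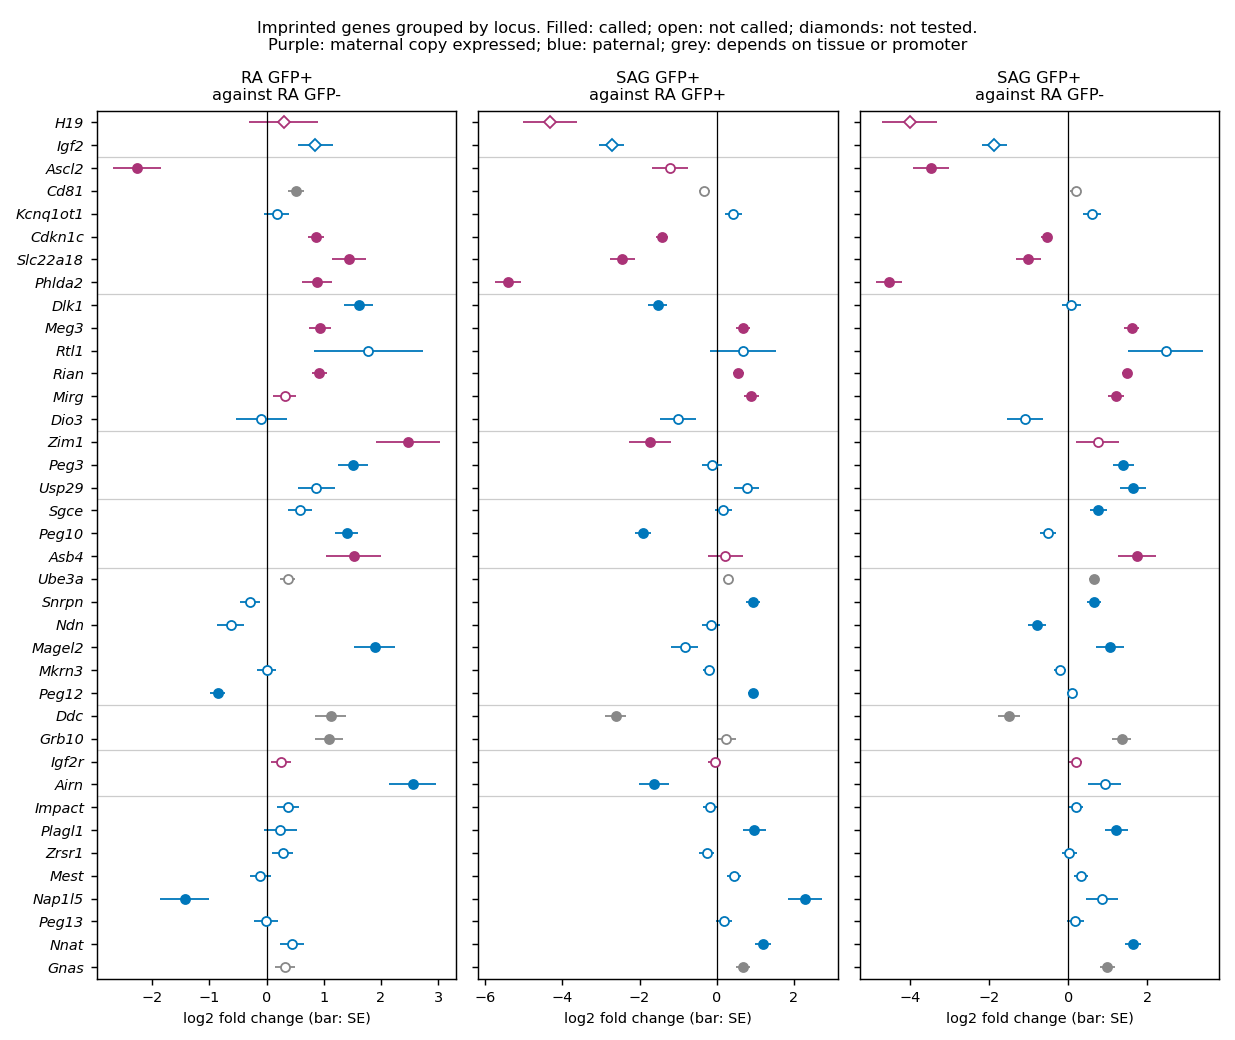
Log2 fold change (x axis, bars: SE) of the 38 imprinted genes with enough counts, grouped by locus (y axis), in the 3 comparisons. Filled points passed the test at an adjusted p under 0.05, open points did not, diamonds (H19 and Igf2) were not tested, and colours give the allele known to be expressed; Phlda2 lies farthest to the left in both comparisons with SAG GFP+ (-5.41 and -4.53).

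H19 and Igf2 were both low in the SAG GFP+ cells. H19, a maternally expressed long noncoding RNA (at 142575529 to 142578143 on the minus strand of chromosome 7 in GRCm38), measured 170, 97.1 and 128 CPM in RA GFP- 1 to 3, 195, 90.5 and 200 in RA GFP+ and 0.978, 5.99 and 17.4 in SAG GFP+. The RA groups overlapped, and every SAG GFP+ library lay below every RA library, with a wide spread of its own. The log2 fold change was 0.30 between the RA groups, -4.31 in SAG GFP+ against RA GFP+ and -4.01 against RA GFP-. Without SAG GFP+ 3, the last 2 were -5.51 and -5.21.

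Igf2 encodes insulin-like growth factor 2, is paternally expressed, and shares with H19 enhancers and the control region that lies between them. Its level was 20.4, 40 and 20.2 CPM in RA GFP-, 50.4, 53.3 and 41.3 in RA GFP+ and 5.05, 6.18 and 10.7 in SAG GFP+. No library of one group overlapped another group, with RA GFP+ above RA GFP- and SAG GFP+ below both. The log2 fold changes were 0.85, -2.72 and -1.87 in the order above. Igf2 shares 62.8% of its exon bases with Gm49394 on the same strand, which held 80 counts over all libraries against 6778 for Igf2. How reads in shared exons were counted is not given. The counts of Igf2, its level per kilobase and its ratio to H19 are therefore uncertain. The genes lie 72.6 kb apart and their levels differed in degree. Per kilobase of exon, the log2 ratio of H19 to Igf2 was 2.50 to 4.27 in RA GFP-, 1.98 to 3.49 in RA GFP+ and -1.09 to 1.91 in SAG GFP+.

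**Figure D2:**
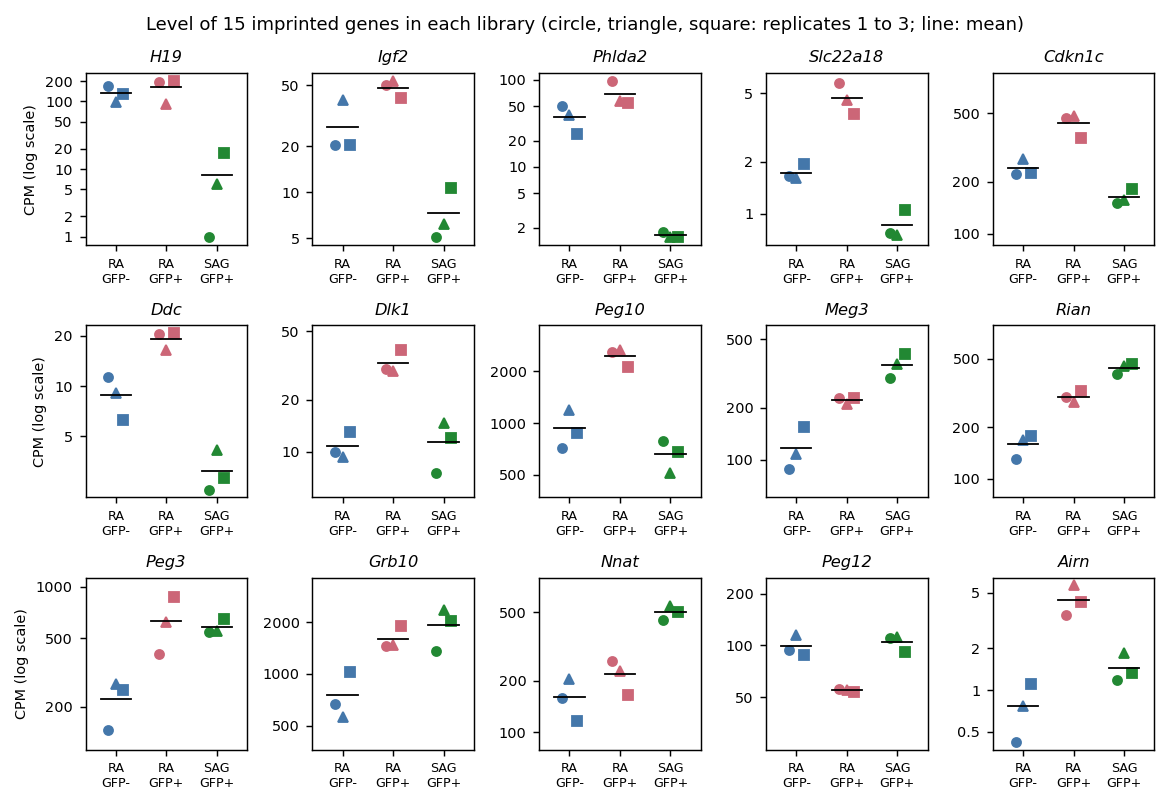
Level in CPM (log y axis, its range set per panel) of 15 imprinted genes in each library of the 3 groups (x axis); circles, triangles and squares are replicates 1 to 3 and lines are means. H19, Igf2, Phlda2, Slc22a18 and Ddc lie lowest in all 3 SAG GFP+ libraries, and Meg3, Rian and Nnat lie highest there.

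The Kcnq1ot1 domain follows H19 and Igf2 along distal chromosome 7, and its maternally expressed protein-coding genes Cdkn1c, Phlda2 and Slc22a18 all rose in RA GFP+ and were lower in SAG GFP+. Phlda2, a small pleckstrin homology protein that limits placental growth, stood at 49.5, 39.8 and 23.9 CPM in RA GFP-, 97.1, 57.2 and 54.3 in RA GFP+ and 1.79, 1.54 and 1.56 in SAG GFP+. It was higher in RA GFP+ than in RA GFP- (log2 fold change 0.88, SE 0.27, adjusted p = 0.0435) and lower in SAG GFP+ than in RA GFP+ (-5.41, SE 0.34, adjusted p = 2.5e-06) and RA GFP- (-4.53, SE 0.33, adjusted p = 3.79e-06). The SAG GFP+ libraries differed little among themselves and lay far below the others.

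Cdkn1c, a cyclin-dependent kinase inhibitor that restrains the cell cycle, measured 221, 273 and 225 CPM in RA GFP-, 473, 486 and 358 in RA GFP+ and 151, 158 and 183 in SAG GFP+. Its log2 fold changes were 0.87 (adjusted p = 0.00174), -1.42 (adjusted p = 4.99e-05) and -0.55 (adjusted p = 0.015), and no groups overlapped. Slc22a18, a membrane transporter gene between Cdkn1c and Phlda2, was low throughout: 1.66, 1.6 and 1.94 CPM in RA GFP-, 5.72, 4.6 and 3.8 in RA GFP+ and 0.774, 0.749 and 1.05 in SAG GFP+. It was called in each comparison as well, at log2 fold changes of 1.44 (adjusted p = 0.00703), -2.45 (adjusted p = 0.000253) and -1.01 (adjusted p = 0.0351).

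The rest of the domain did not share that order. Ascl2, a transcription factor of trophoblast, was 4.13, 4 and 2.78 CPM in RA GFP-, 0.51, 0.907 and 0.837 in RA GFP+ and 0.163, 0.3 and 0.506 in SAG GFP+. It was lower in both GFP+ groups than in RA GFP- (-2.26, adjusted p = 0.00357, and -3.47, adjusted p = 0.00023), while the groups of GFP+ cells were not called apart (-1.21, adjusted p = 0.0826; 0.0479 without SAG GFP+ 3). Cd81, a tetraspanin, was 171, 138 and 146 CPM in RA GFP-, 231, 204 and 211 in RA GFP+ and 178, 144 and 196 in SAG GFP+, and rose in RA GFP+ against RA GFP- (0.51, adjusted p = 0.0235). Kcnq1ot1, the paternally expressed noncoding RNA that silences the domain in cis, was not called in any comparison. It stood at 51.9, 74 and 83.4 CPM in RA GFP-, 66.8, 104 and 66.1 in RA GFP+ and 91.8, 101 and 125 in SAG GFP+, with log2 fold changes of 0.18, 0.43 and 0.60. Tspan32, another tetraspanin, was too low to test, at 0.0672 to 0.741 CPM in the RA libraries and 0 counts in the SAG GFP+ libraries, where 3 counts over the group would be 0.039 CPM.

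Several calls in the domain were lost in some fits with a library left out, while the log2 fold changes kept their direction. Over all alternative fits, the values between the RA groups were 0.57 to 1.14 for Phlda2 and 0.45 to 0.61 for Cd81. For SAG GFP+ against RA GFP- they were -0.62 to -0.44 for Cdkn1c and -1.17 to -0.90 for Slc22a18. For Phlda2 in the RA comparison, the adjusted p was 0.0928 without RA GFP- 2, 0.111 without RA GFP- 3, 0.196 without RA GFP+ 1 (log2 fold change 0.57), 0.0575 without RA GFP+ 2, 0.0603 without SAG GFP+ 2, 0.0569 without SAG GFP+ 3 and 0.0685 with only the RA groups fitted. For Cd81 it was 0.0909 and 0.0667 without RA GFP- 2 and 3, and 0.094, 0.0547 and 0.0508 without RA GFP+ 1, 2 and 3. For SAG GFP+ against RA GFP-, Cdkn1c was at 0.063 without RA GFP- 2 and at 0.07 without SAG GFP+ 2. Slc22a18 there lost its call in 10 of 15 alternative fits, among them those without RA GFP- 1 (0.0672), 2 (0.0586) or 3 (0.0803), RA GFP+ 1 (0.0503) or 2 (0.0579), and SAG GFP+ 1 (0.0693) or 2 (0.125). Kcnq1ot1 there, at 0.0567, was called without RA GFP- 3 (0.0375), RA GFP+ 2 (0.0366) or SAG GFP+ 1 (0.0334).

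The genes around the listed ones were also counted. From 200 kb before H19 to 200 kb after Phlda2, 19 other genes were tested. Of these, 2 were higher and 1 lower in RA GFP+ against RA GFP- (15.8%, against 16.9% of all tested genes), and 5 were called in SAG GFP+ against RA GFP-, all lower (26.3%, against 28.5%), so both shares lay near those of all genes. In SAG GFP+ against RA GFP+, 2 were higher and 7 lower (47.4%, against 24.5%). The 5 lower than in RA GFP- were Ctsd, Tnni2, Tnnt3, Gm49394 and Igf2os, all on the H19 and Igf2 side, and they were named after their values were seen. Igf2os, antisense to Igf2, was higher in RA GFP+ (log2 fold change 1.07) and lower in SAG GFP+ against RA GFP+ (-1.88).

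**Figure D3:**
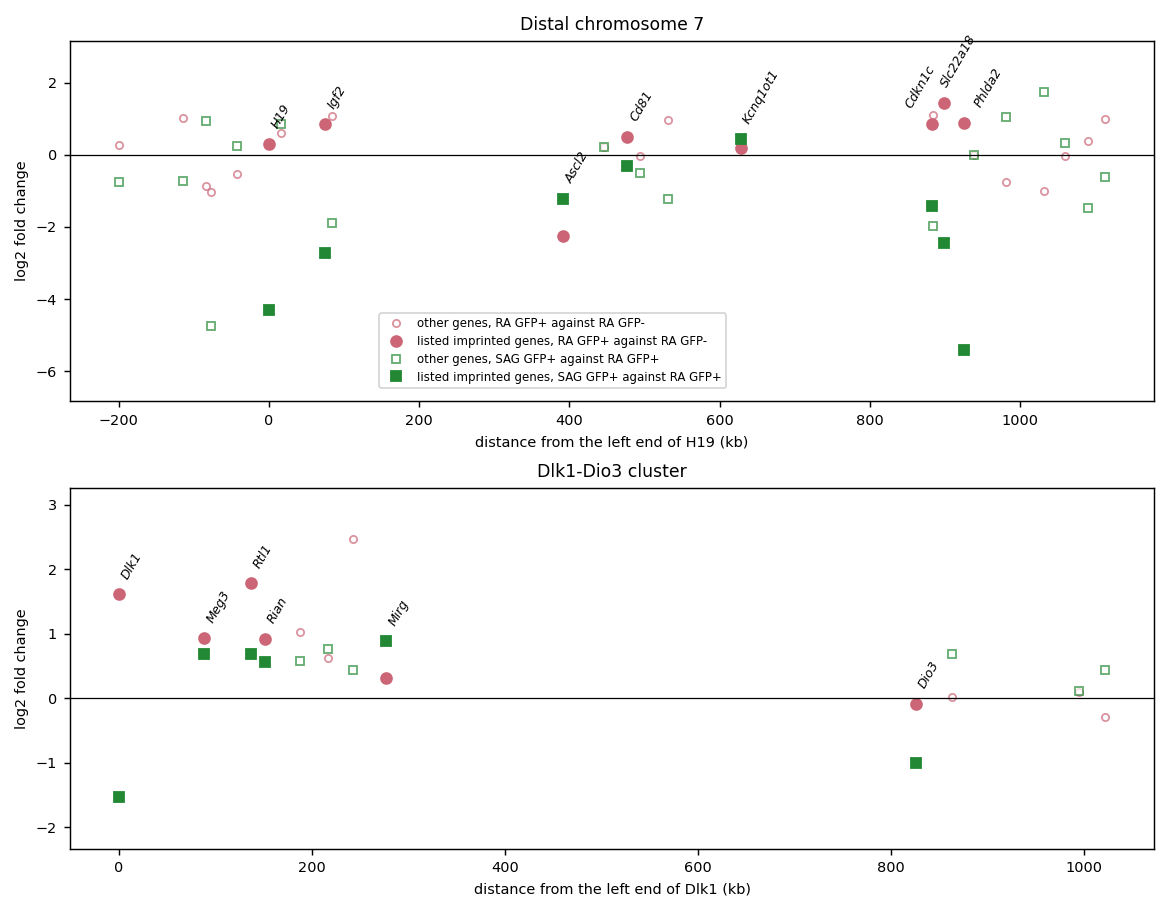
Log2 fold change (y axis) of tested genes against distance in kb from the left end of the first listed gene (x axis) on distal chromosome 7 and at Dlk1-Dio3 on chromosome 12. Filled symbols are listed imprinted genes and open ones other genes, circles compare the RA groups and squares SAG GFP+ with RA GFP+; Tnni2 and Gm49394, at 0 in a group, are left out, and Dlk1 lies at 1.61 and -1.53 where Meg3 lies at 0.93 and 0.68.

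At the Dlk1-Dio3 cluster on chromosome 12, the maternal noncoding RNAs Meg3 and Rian and the paternal gene Dlk1 were all higher in RA GFP+ than in RA GFP-, and in SAG GFP+ against RA GFP+ Meg3 and Rian were higher and Dlk1 lower. Meg3, a long noncoding RNA that neural cells make in quantity, was 88.4, 108 and 155 CPM in RA GFP-, 228, 210 and 229 in RA GFP+ and 298, 358 and 412 in SAG GFP+. No groups overlapped, and the log2 fold changes were 0.93 (SE 0.19, adjusted p = 0.00581), 0.68 (SE 0.19, adjusted p = 0.0211) and 1.60 (SE 0.19, adjusted p = 0.000106). Rian, which lies downstream and hosts small nucleolar RNAs, had the same order: 130, 169 and 178 CPM, then 301, 279 and 323, then 408, 455 and 468. Its log2 fold changes were 0.92 (adjusted p = 0.000747), 0.56 (adjusted p = 0.00944) and 1.48 (adjusted p = 1.6e-05). Mirg, the host of the microRNA cluster, was 9.5, 8.69 and 12.1 CPM in RA GFP-, 12.4, 11.3 and 14.1 in RA GFP+ and 22.2, 19.6 and 28.1 in SAG GFP+. The RA groups of Mirg overlapped (0.32, adjusted p = 0.329), and it was higher in SAG GFP+ than in RA GFP+ (0.89, adjusted p = 0.00784) and RA GFP- (1.21, adjusted p = 0.00112).

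Dlk1, a transmembrane protein of the Delta-like family, was 9.96, 9.33 and 13.1 CPM in RA GFP-, 30.3, 29.6 and 39 in RA GFP+ and 7.54, 14.6 and 12.1 in SAG GFP+. It rose in RA GFP+ (1.61, SE 0.25, adjusted p = 0.00114) and fell in SAG GFP+ against RA GFP+ (-1.53, SE 0.25, adjusted p = 0.000994). SAG GFP+ and RA GFP- overlapped and were not called apart (0.08, adjusted p = 0.835). Rtl1, a retrotransposon-derived gene needed in placental vessels, was low, at 0, 0.191 and 0.609 CPM in RA GFP-, 0.823, 0.874 and 1.05 in RA GFP+ and 0.244, 1.39 and 2.76 in SAG GFP+. Dio3, the deiodinase that inactivates thyroid hormone, was 0.448 to 1.87 CPM over all libraries. Neither was called in any comparison. Rtl1 in SAG GFP+ against RA GFP- had a log2 fold change of 2.46 (adjusted p = 0.0739) that was called without RA GFP- 3 (3.92, 0.0284) or SAG GFP+ 1 (0.0183), and was 1.64 without SAG GFP+ 3. Of 6 other tested genes within 200 kb of the cluster, 2 were called, Gm26945 and B830012L14Rik, both higher in SAG GFP+ against RA GFP- (33.3%, against 28.5% of all genes). The rise of Meg3 from RA GFP+ to SAG GFP+ had an adjusted p of 0.0574 and 0.0817 without RA GFP+ 1 and 2 and 0.0531 and 0.0762 without SAG GFP+ 2 and 3, and that of Rian 0.0521 without RA GFP+ 2.

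At the Peg10 cluster on chromosome 6, Peg10 was higher in RA GFP+ than in both other groups. Sgce, whose start lies 0.099 kb away on the other strand, is given after it. Peg10, a paternally expressed gag-like gene of retrotransposon origin, was 721, 1199 and 882 CPM in RA GFP-, 2591, 2675 and 2129 in RA GFP+ and 784, 511 and 678 in SAG GFP+. RA GFP+ stood clear of both other groups, with log2 fold changes of 1.40 (SE 0.20, adjusted p = 0.000768) over RA GFP- and -1.91 (SE 0.21, adjusted p = 6.65e-05) for SAG GFP+ against it. SAG GFP+ and RA GFP- overlapped (-0.51, adjusted p = 0.0784; 0.039 without RA GFP- 1 and 0.0386 without SAG GFP+ 1; -0.29 without RA GFP- 2 and -0.33 without SAG GFP+ 2).

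Sgce, which encodes epsilon-sarcoglycan, was 29.8, 28.8 and 29 CPM in RA GFP-, 45.8, 38.5 and 47.6 in RA GFP+ and 31.3, 57.5 and 59.8 in SAG GFP+. It was called only in SAG GFP+ against RA GFP- (0.76, adjusted p = 0.0198). That call was lost without RA GFP- 2 (0.0573) or SAG GFP+ 2 (0.0774) or 3 (0.0803), and with SAG GFP+ 1, the lowest of its group, left out, Sgce was also called in the other comparisons (0.00712 for the RA groups and 0.0366 for SAG GFP+ against RA GFP+). With the replicate number as a block the difference between the RA groups (0.59, adjusted p = 0.0825) was called (0.00277). Asb4, a maternally expressed subunit of ubiquitin ligases, stayed at 0.53 to 1.94 CPM in RA GFP-, 1.95 to 5.48 in RA GFP+ and 3.91 to 4.91 in SAG GFP+. It was called in RA GFP+ (1.52, adjusted p = 0.0488) and in SAG GFP+ (1.73, adjusted p = 0.0187) against RA GFP-. The first of those calls was lost without RA GFP- 1 (0.124) or 2 (0.103), RA GFP+ 1 (0.101) or 3 (0.174), or SAG GFP+ 2 (0.066) or 3 (0.0588), and the second without RA GFP- 1 (0.0506) or SAG GFP+ 3 (0.0523).

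At the Peg3 cluster on proximal chromosome 7, Peg3 was higher in both GFP+ groups than in RA GFP-. Peg3, a paternally expressed zinc finger protein, was 147, 270 and 251 CPM in RA GFP-, 405, 624 and 866 in RA GFP+ and 544, 556 and 649 in SAG GFP+. Both GFP+ groups cleared RA GFP- (1.51, adjusted p = 0.0028, and 1.39, adjusted p = 0.00254) and overlapped each other (-0.12, adjusted p = 0.786). Usp29, a ubiquitin protease gene that starts 0.147 kb from Peg3 on the other strand, was 8.44, 7.2 and 11.2 CPM in RA GFP-, 10.7, 12.5 and 25.8 in RA GFP+ and 21.4, 26.2 and 36.1 in SAG GFP+. It was called in SAG GFP+ against RA GFP- (1.64, adjusted p = 0.00353). Between the RA groups its log2 fold change was 0.87 (adjusted p = 0.098; 0.00872 with the replicate block), and 0.38 without RA GFP+ 3. Without that library, the highest of its group, Usp29 was also called in SAG GFP+ against RA GFP+ (1.26, adjusted p = 0.0078, from 0.77, adjusted p = 0.108).

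Zim1, the maternally expressed zinc finger gene on the other side of Peg3, was 2.58, 3.85 and 4.87 CPM in RA GFP-, 10.8, 12 and 39.8 in RA GFP+ and 3.1, 4.94 and 10.8 in SAG GFP+. It was called higher in RA GFP+ than in RA GFP- (2.47, adjusted p = 0.0108) and lower in SAG GFP+ than in RA GFP+ (-1.73, adjusted p = 0.0385), although the last groups met at 10.8 CPM. RA GFP+ 3 set much of both values. Without it they were 1.60 and -0.86, and the second was not called (0.206). The first was also lost without RA GFP- 1 (0.0515), and the second without RA GFP- 2 (0.0547) or SAG GFP+ 1 (0.0898) or 2 (0.133). In SAG GFP+ against RA GFP- the value of 0.74 became 0.11 without SAG GFP+ 3.

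In the Snrpn domain of central chromosome 7, neighbours moved in different directions. Peg12, a paternally expressed gene of the Frat family of WNT pathway proteins, was 93.5, 115 and 88.5 CPM in RA GFP-, 56, 55.1 and 53.4 in RA GFP+ and 111, 112 and 92.1 in SAG GFP+. RA GFP+ was the low group, with log2 fold changes of -0.85 (SE 0.13, adjusted p = 0.00118) against RA GFP- and 0.94 (SE 0.13, adjusted p = 0.0004) for SAG GFP+ against it. Magel2, a MAGE protein that works with ubiquitin ligases, went the other way in RA GFP+: 4.7, 8.38 and 6.47 CPM in RA GFP- against 21.6, 23.1 and 27.5 (1.89, SE 0.36, adjusted p = 0.00422). In SAG GFP+ Magel2 was uneven, at 22.8, 7.98 and 10 CPM, with replicate 1 near the RA GFP+ level and replicate 2 inside the RA GFP- range. Its difference from RA GFP- was called (1.06, adjusted p = 0.0448), but the value was 0.49 without SAG GFP+ 1 (adjusted p = 0.152). Other single libraries ended that call too: the adjusted p was 0.141 and 0.0881 without RA GFP- 1 and 3, and 0.056, 0.0629 and 0.0534 without RA GFP+ 1 to 3. Against RA GFP+ the value was -0.83 (adjusted p = 0.11), and -1.40 without SAG GFP+ 1 (adjusted p = 0.00276) and -0.54 without SAG GFP+ 2.

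Ndn, a MAGE protein of neurons next to Magel2, was 111, 99.3 and 108 CPM in RA GFP-, 56.8, 61.7 and 87.5 in RA GFP+ and 80.5, 63.1 and 40.5 in SAG GFP+. RA GFP- was above every other library. The difference was called for SAG GFP+ (-0.79, adjusted p = 0.0237) and not for RA GFP+ (-0.63, adjusted p = 0.0861), where it was called with the replicate block (0.00275) and without RA GFP+ 3 (0.0377), SAG GFP+ 1 (0.0417) or SAG GFP+ 3 (0.0313). The call for SAG GFP+ was lost without RA GFP- 1 (0.0698) or SAG GFP+ 2 (0.0651) or 3 (0.0724).

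Snrpn, a spliceosome protein of the brain, was 74.9, 57.4 and 45.4 CPM in RA GFP-, 53.4, 46.7 and 45.3 in RA GFP+ and 109, 86 and 83.3 in SAG GFP+. The RA groups overlapped (-0.29, adjusted p = 0.319), and SAG GFP+ was higher than RA GFP+ (0.94, adjusted p = 0.00314) and RA GFP- (0.65, adjusted p = 0.0202; 0.0625 and 0.0561 without RA GFP- 2 and 3). It shares 27.3% of its exon bases with Gm38393 on the same strand, a locus with 8255 counts against 15981, so its counts are uncertain. Ube3a, a ubiquitin ligase read mainly from the maternal copy in neurons, was 168, 211 and 197 CPM in RA GFP-, 215, 266 and 260 in RA GFP+ and 283, 297 and 328 in SAG GFP+. No groups overlapped. It was higher in SAG GFP+ than in RA GFP- (0.66, adjusted p = 0.00258), and the step between the RA groups (0.37, adjusted p = 0.0717) was called with the replicate block (0.00763). Mkrn3, a ring finger gene, stayed at 13.8 to 19.5 CPM in all libraries and was not called.

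Grb10 and Ddc, neighbours on chromosome 11, rose together in RA GFP+ and differed in SAG GFP+. Grb10, an adaptor that dampens signalling from insulin and IGF receptors, was 671, 560 and 1026 CPM in RA GFP-, 1452, 1465 and 1894 in RA GFP+ and 1366, 2346 and 2027 in SAG GFP+. It was higher in RA GFP+ (1.09, SE 0.24, adjusted p = 0.00885) and SAG GFP+ (1.35, SE 0.24, adjusted p = 0.00166) than in RA GFP-, and the GFP+ groups overlapped (0.25, adjusted p = 0.473). Ddc, the decarboxylase that makes dopamine and serotonin, was 11.3, 9.03 and 6.24 CPM in RA GFP-, 20.5, 16.5 and 20.7 in RA GFP+ and 2.4, 4.16 and 2.8 in SAG GFP+. No groups overlapped: Ddc rose in RA GFP+ (1.12, adjusted p = 0.0132) and was lower in SAG GFP+ than in RA GFP+ (-2.62, adjusted p = 6.97e-05) and RA GFP- (-1.50, adjusted p = 0.00198).

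Igf2r, the receptor that carries IGF2 to lysosomes, was 154, 161 and 248 CPM in RA GFP-, 208, 217 and 244 in RA GFP+ and 199, 206 and 236 in SAG GFP+. It was not called in any comparison, but without RA GFP- 3, the highest of its group, it was called for RA GFP+ (adjusted p = 0.0249) and SAG GFP+ (0.0263) against RA GFP-. Airn, the paternally expressed RNA that runs antisense across the start of Igf2r, was low and changed: 0.424, 0.762 and 1.1 CPM in RA GFP-, 3.45, 5.65 and 4.32 in RA GFP+ and 1.18, 1.84 and 1.32 in SAG GFP+. It was higher in RA GFP+ than in RA GFP- (2.55, SE 0.41, adjusted p = 0.00138) and lower in SAG GFP+ than in RA GFP+ (-1.62, SE 0.39, adjusted p = 0.00985; 0.0518 without RA GFP+ 2).

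Of the 9 genes outside a listed cluster, 8 were tested. In RA GFP+ against RA GFP-, 1 was called (Nap1l5, lower), a share of 12.5%, near the 16.9% of all tested genes. With the replicate block 4 were called (50.0%, against 32.2% of all genes), Nnat, Gnas and Impact being added, all higher. In SAG GFP+ against RA GFP+, 4 were called, all higher (Nnat, Plagl1, Gnas and Nap1l5), which is 50%, against 24.5% of all genes. Nnat, a membrane proteolipid of developing brain, was 159, 204 and 116 CPM in RA GFP-, 259, 229 and 164 in RA GFP+ and 449, 543 and 503 in SAG GFP+. SAG GFP+ stood clear of both RA groups, with log2 fold changes of 1.20 (SE 0.21, adjusted p = 0.00156) against RA GFP+ and 1.64 (SE 0.21, adjusted p = 0.000176) against RA GFP-. The RA groups of Nnat were not called apart (0.44, adjusted p = 0.176; 0.0105 with the replicate block, and 0.26 without RA GFP- 3).

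Plagl1, a zinc finger factor that restrains growth, was 53, 49.1 and 72.2 CPM in RA GFP-, 46.4, 50.1 and 110 in RA GFP+ and 120, 131 and 153 in SAG GFP+. SAG GFP+ was above the rest (0.97, adjusted p = 0.0293, against RA GFP+, and 1.21, adjusted p = 0.00905, against RA GFP-). RA GFP+ 3 lay close to SAG GFP+, and without it the first value was 1.48. That call was lost without RA GFP+ 1 (0.107) or 2 (0.119) or SAG GFP+ 2 (0.0622) or 3 (0.092). Gnas, the stimulatory G protein subunit, was 692, 713 and 847 CPM in RA GFP-, 866, 880 and 1057 in RA GFP+ and 1078, 1573 and 1826 in SAG GFP+. It was higher in SAG GFP+ than in RA GFP+ (0.68, adjusted p = 0.0168) and RA GFP- (0.99, adjusted p = 0.00174). The first of these calls was lost without RA GFP+ 1 (0.0673) or 2 (0.0681) or SAG GFP+ 2 (0.0549) or 3 (0.0668), and the RA groups (0.32, adjusted p = 0.269) were called apart with the replicate block (0.0135). The gene-level counts of Gnas pool its alternative promoters.

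Nap1l5, a small nucleosome assembly gene, was below 5 CPM everywhere and is named because its values were seen to differ. It was 1.8, 2.51 and 1.67 CPM in RA GFP-, 0.51, 1.18 and 0.523 in RA GFP+ and 2.28, 4.23 and 4.28 in SAG GFP+. SAG GFP+ was higher than RA GFP+ (2.28, adjusted p = 0.00275). RA GFP+ was lower than RA GFP- (-1.43, adjusted p = 0.0417), a call that was lost without RA GFP- 1 (0.0704), 2 (0.129) or 3 (0.0579), RA GFP+ 1 (0.145) or 3 (0.13), or SAG GFP+ 2 (0.0586) or 3 (0.05). The others were not called in any comparison: Mest, a hydrolase-like protein of mesoderm, at 846 to 1763 CPM, Impact, a translation regulator, at 122 to 245, Zrsr1, a splicing factor relative, at 10.7 to 16.5, and Peg13, an intronic noncoding RNA, at 12.3 to 19.5. For Impact between the RA groups (0.37, adjusted p = 0.233) the replicate block gave a call (0.00892), and for Mest SAG GFP+ against RA GFP+ (0.44, adjusted p = 0.0975) was called without SAG GFP+ 1 (0.0277). Rasgrf1, an exchange factor for Ras, was too low to test, with 0 counts in RA GFP-, where 3 counts over the group would be 0.0371 CPM, and 0.0784 to 0.584 CPM elsewhere.

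The maternally and paternally expressed genes were set side by side. Of 10 tested maternally expressed genes, 7 were higher and 1 lower in RA GFP+ against RA GFP-, 3 higher and 4 lower in SAG GFP+ against RA GFP+, and 4 higher and 4 lower in SAG GFP+ against RA GFP-, with median log2 fold changes of 0.90, -0.64 and 0.46. Of 21 tested paternally expressed genes, the same counts were 5 and 2, 5 and 3, and 7 and 1, and the medians were 0.28, 0.17 and 0.60. With the replicate block the RA groups differed in 12 of these 21 (9 higher and 3 lower), since Usp29, Sgce, Nnat, Impact and Ndn were added, and in the same 8 of the maternally expressed genes. Of the 5 tested genes whose allele differs between tissues or promoters, 3 were called in the first comparison, all higher, with 1 higher and 1 lower in the next, 3 higher and 1 lower in the last, and medians of 0.51, 0.25 and 0.66; with the block all 5 were higher in the first. The shares called were 80%, 70% and 80% of the maternally expressed genes and 33.3%, 38.1% and 38.1% of the paternally expressed ones. Of the last class they were 60%, 40% and 80%. Of all tested genes, 16.9%, 24.5% and 28.5% were called. With the block the class shares were 80.0%, 57.1% and 100% between the RA groups, against 32.2% of all genes in that fit. The difference between the classes was not tested, and members of a cluster share control regions, so they are not independent.

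The sum of levels per kilobase over the 11 maternally expressed genes, H19 included, was 255, 247 and 234 CPM per kb in RA GFP-, 457, 383 and 373 in RA GFP+ and 141, 153 and 179 in SAG GFP+. The same sum over the 23 paternally expressed genes was 679, 772 and 594, then 986, 1009 and 844, then 886, 917 and 1038. The maternal sum rests largely on a few genes. Without H19 it was 186, 207 and 182, then 378, 347 and 292, then 141, 151 and 172. Without Cdkn1c and Phlda2 as well, genes set aside after their values were seen, the other 8 summed to 33.8, 38 and 50.6 CPM per kb in RA GFP-, 59.1, 57 and 67.6 in RA GFP+ and 65.2, 71.8 and 81.2 in SAG GFP+, which was then not the lowest group. Mest, Peg10, Cdkn1c, Nnat and Grb10 led the order per kilobase in RA GFP-, at mean levels of 278, 140, 118, 87.3 and 82.8 CPM per kb. Phlda2 ranked 10 of the 40 genes in RA GFP-, 9 in RA GFP+ and 28 in SAG GFP+, and H19 ranked 7, 8 and 21. Nnat went from rank 4 and 5 in the RA groups to 2 in SAG GFP+.

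For 22 adjacent pairs of listed genes, the log2 ratio of levels per kilobase was taken in each library, with 0.05 CPM added to both. With 3 libraries against 3, an exact two-sided permutation test cannot give a p under 0.10, so none of these differences could pass 0.05. Groups did not overlap in most of the 22 pairs for SAG GFP+ against RA GFP+ and also against RA GFP-. Ratios of other neighbouring genes were not taken, so whether that share is unusual is not known. The pairs described here are a selection from the 22. Dlk1 to Meg3 had ratios of -1.47, -1.85 and -1.88 in RA GFP-, -1.23, -1.15 and -0.88 in RA GFP+ and -3.62, -2.93 and -3.41 in SAG GFP+. No groups overlapped, and each difference had the smallest exact p of 0.10. Kcnq1ot1 to Cdkn1c and Cdkn1c to Slc22a18 likewise had no overlap in any comparison. Sgce to Peg10 was -5.26, -6.05 and -5.60, then -6.49, -6.79 and -6.15, then -5.32, -3.82 and -4.17, and RA GFP+ was the group where Peg10 most exceeded Sgce (exact p = 0.10 against either other group).

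Ndn to Magel2 was 4.87, 3.88 and 4.38 in RA GFP-, 1.72, 1.74 and 1.99 in RA GFP+ and 2.15, 3.30 and 2.33 in SAG GFP+. Igf2r to Airn was 6.97, 6.26 and 6.38, then 4.52, 3.88 and 4.43, then 5.96, 5.40 and 6.05. In both pairs no groups overlapped, and RA GFP+ had the smallest ratios. Ddc to Grb10 overlapped between the RA groups, with means of -5.37 and -5.35, and was -8.09, -8.10 and -8.45 in SAG GFP+. Slc22a18 to Phlda2 also overlapped between the RA groups, at -5.46 to -4.19 and -4.67 to -4.22, and was -1.76 to -1.15 in SAG GFP+.

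**Figure D4:**
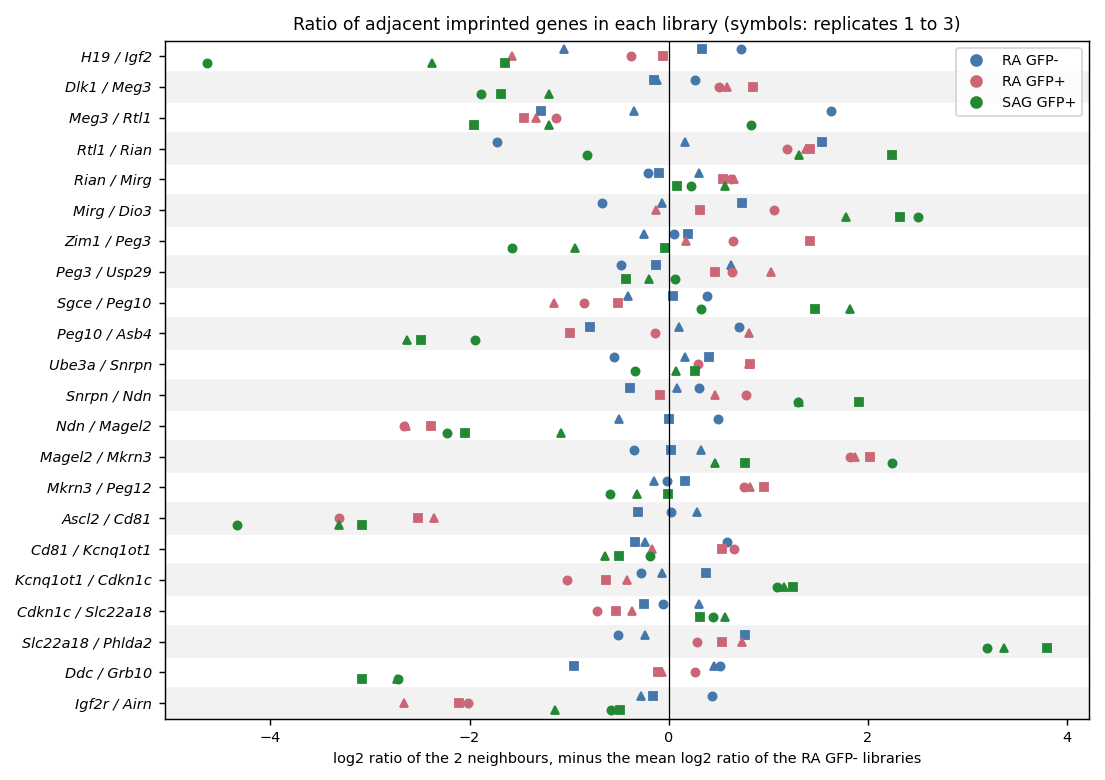
Log2 ratio of levels per kb of 22 adjacent imprinted pairs (y axis) in each library, minus the mean of the RA GFP- libraries (x axis); circles, triangles and squares are replicates 1 to 3. The SAG GFP+ libraries stand apart to the right for Slc22a18 / Phlda2 and to the left for Ddc / Grb10 and Dlk1 / Meg3, and the RA GFP+ libraries lie to the left for Igf2r / Airn.

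Genes of the IGF pathway were examined because Igf2, Igf2r and Grb10 act in it. The list also holds Igf2bp1, Igf2bp2 and Igf2bp3, which encode proteins that bind messenger RNA. Of 18 listed genes that are not members, 16 were tested, and 8 were called in RA GFP+ against RA GFP-, all higher, with 4 higher and 3 lower in SAG GFP+ against RA GFP+, and 8 higher and 1 lower in SAG GFP+ against RA GFP-, with medians of 0.89, -0.18 and 0.59. These shares are 50%, 43.8% and 56.2%, against 16.9%, 24.5% and 28.5% of all tested genes. Igf2bp2 and Igf2bp3 were among the 4 higher in SAG GFP+ against RA GFP+ (log2 fold changes 0.77 and 0.93). The replicate block gave 12 calls between the RA groups, all higher, adding Igf1r, Insr, Irs4 and Igfbp3 (75.0%, with 32.2% of all genes called in that fit). Igf1, the sister ligand of Igf2, was 0.799 to 1.33 CPM in RA GFP-, 13.4 to 21.9 in RA GFP+ and 0.448 to 1.09 in SAG GFP+, and was called in both comparisons with RA GFP+ (4.17, adjusted p = 3.08e-05, and -4.49, adjusted p = 1.18e-05). Igfbp5, a binding protein that holds IGFs outside cells, was 56.6 to 78 CPM in RA GFP-, 1112 to 1482 in RA GFP+ and 1913 to 3465 in SAG GFP+. It had log2 fold changes of 4.28 and 5.44 against RA GFP- (adjusted p = 2.71e-06 and 1.46e-07). Pappa, the protease that cleaves such binding proteins, was 1.62 to 2.47 CPM in RA GFP- and 20.2 to 31.5 in SAG GFP+ (3.59, adjusted p = 2.6e-05).

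Of 18 factors that act on imprints or DNA methylation, all tested, 1 was higher and 6 lower in RA GFP+ against RA GFP-. The counts were 1 higher and 3 lower in SAG GFP+ against RA GFP+, and 1 higher and 7 lower in SAG GFP+ against RA GFP-. The shares called were 38.9%, 22.2% and 44.4%, against 16.9%, 24.5% and 28.5% of all tested genes, so the share in SAG GFP+ against RA GFP+ was near that of all genes. With the replicate block 2 were higher and 9 lower between the RA groups (61.1%, with 32.2% of all genes called). Trim28, Uhrf1, Dnmt3b and Smchd1 were added. The list includes Tet1, Tet2 and Tet3, whose enzymes act in removing methylation. Without the block, Tet3 was the higher gene between the RA groups (0.70, adjusted p = 0.0334). Tet1 and Tet2 were among the lower (-0.91, adjusted p = 0.0182, and -1.51, adjusted p = 0.0296). Tet1 was the higher gene in SAG GFP+ against RA GFP+ (0.82, adjusted p = 0.0235). Each of these Tet calls was lost in some fits with a library left out. Zfp57, which holds methylation at control regions, was 74.9, 68.1 and 68.7 CPM in RA GFP-, 38.3, 35.3 and 40.2 in RA GFP+ and 23.2, 34.1 and 40.1 in SAG GFP+, lower in both GFP+ groups (-0.90, adjusted p = 0.00503, and -1.12, adjusted p = 0.000771). Dnmt3l, the cofactor of methylation in germ cells and pluripotent cells, was 94.7 to 207 CPM in RA GFP-, 32.4 to 43.4 in RA GFP+ and 0.285 to 0.787 in SAG GFP+ and was called lower at each step (-2.04, adjusted p = 0.000471, and -6.01, adjusted p = 2.37e-06). Dppa3, which protects maternal methylation in the zygote, was 26.6 to 55.8, 0.807 to 2.02 and 0.0407 to 0.273 CPM. The summed pluripotency level given above was highest in RA GFP- too, and their part in these values was not tested.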

How the data were processed

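Per the labels' protocols, poly(A) RNA of 9 sorted samples went into directional libraries. Values deposited by the authors are whole-number counts for each Ensembl gene. The submitters' processing notes name GRCm38, Bowtie2 2.3.4.1, Trim Galore 0.5.0 and featureCounts of Subread 1.6.2. How spliced, multi-mapped and overlapping reads were counted, and on which strand, is not given in the sources used here.

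The counts were tested in R 4.3.3 with edgeR 4.0.16 (quasi-likelihood, TMM scaling, a mean per group over all 9 libraries). The filterByExpr minimum was 10 counts, p-values were adjusted (Benjamini-Hochberg) over all 16772 tested genes, and genes under 0.05 were called. CPM are counts per 1000000 of the scaled library size, and levels per kilobase divide them by exon length (GENCODE vM21 gene models). Totals were 25281871 to 29763765 counts and the common coefficient of variation was 0.226. Folds of low genes depend on edgeR's prior count. The fit was tested on simulated data. Neighbour ratios were compared by exact permutation.

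Alternatives were the DESeq2 size factors, DESeq2 1.42.0, no filter on low counts, only the groups compared, the replicate number as a block, and each library left out. Same-numbered RA libraries deviated together (r = 0.273, 0.307 and 0.347 over genes), which ties these groups by number, and the blocked adjusted p, from the fit of those 2 groups, stands beside each gene described in full whose call it changed, with the blocked counts beside those of the groups and lists. Pairs with SAG GFP+ did not all do so. The labels do not say whether biological replicates were separate cultures.

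Members at 5 CPM or more in a group mean and called at least once, and all neighbours at shared loci, are given per library. The others are given by range, and each further list by its 3 called genes with the smallest adjusted p. The members and lists were chosen with earlier results of these data known. H19 and Igf2 were left untested for that reason.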

Additional observations from a re-analysis of the deposited data

How the results depend on the processing

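The number of imprinted genes called stayed within 1.5 times its value under the 15 alternatives of each comparison: 14 to 25 for RA GFP+ against RA GFP- (18 as reported), 12 to 20 for SAG GFP+ against RA GFP+ (17) and 16 to 24 for SAG GFP+ against RA GFP- (20). Of these calls, 13 of 18, 11 of 17 and 13 of 20 held under all 15 alternatives, and no tested value that was called changed direction. Over all genes, RA GFP+ against RA GFP- gave 2838 calls, 5240 with the replicate block on the 2 groups, and 1783 to 3368 with single libraries left out, the lowest without RA GFP+ replicate 2; the cause was not tested. With the replicate block on 9 libraries the imprinted calls were 20, 20 and 21, and on the 2 groups compared 25, 19 and 20. The numbers do not pair the SAG GFP+ libraries with the others (r = 0.111, -0.0816 and 0.182 with RA GFP+; 0.175, -0.0218 and 0.242 with RA GFP-). In SAG GFP+ against RA GFP-, that block ended the calls of Magel2 (adjusted p = 0.139) and Slc22a18 (0.109), and it gave calls to Kcnq1ot1 (0.00976) and Rtl1 (0.0184). In SAG GFP+ against RA GFP+ it gave calls to Usp29 (0.00855) and Ube3a (0.0465). Genes under 1 CPM rest on few counts, as with Rtl1 (0 to 71 per library).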

Other observations

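A further list of 34 imprinted genes outside the set was examined, of which 30 were tested. In RA GFP+ against RA GFP-, 6 of them were called, all higher, and 2 were higher and 7 lower in SAG GFP+ against RA GFP+, and 5 higher and 5 lower in SAG GFP+ against RA GFP-. The shares called were 20%, 30% and 33.3%, near the 16.9%, 24.5% and 28.5% of all tested genes. With the replicate number as a block, 10 of 29 in that fit differed between the RA groups, all higher (34.5%, with 32.2% of all genes called), and Zdbf2, H13, Pon2 and Gab1 were added. Sfmbt2, a Polycomb-group protein gene expressed from the paternal copy, was 252, 304 and 241 CPM in RA GFP-, 298, 296 and 201 in RA GFP+ and 6.6, 12.1 and 17.1 in SAG GFP+. The RA groups of Sfmbt2 overlapped (log2 fold change -0.00, adjusted p = 0.994), and SAG GFP+ was lower than RA GFP+ (-4.47, SE 0.31, adjusted p = 3.78e-06) and RA GFP- (-4.48, SE 0.31, adjusted p = 2.47e-06).

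Slc38a4, an amino acid transporter of placenta and liver, was 97.4, 99.8 and 108 CPM, then 85, 83.3 and 91, then 33, 19.4 and 35.2, and was lower in SAG GFP+ than in RA GFP+ and RA GFP- (-1.57, adjusted p = 0.000155, and -1.80, adjusted p = 4.82e-05). As background, the imprint of Sfmbt2 and Slc38a4 rests in part on histone marks inherited from the egg. Ano1, a chloride channel, went the other way, at 4.06, 2.93 and 2.25 CPM in RA GFP-, 27.9, 17 and 23.3 in RA GFP+ and 39.3, 59.1 and 55.5 in SAG GFP+ (2.88, adjusted p = 4.43e-05, in RA GFP+ against RA GFP-, and 4.05, adjusted p = 2.47e-06, in SAG GFP+ against RA GFP-).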
